A study of Mus musculus with 9 samples.

Results

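The 6 actin genes of the mouse (Acta1, Actc1, Acta2, Actg2, Actb and Actg1) were followed in RNA from C2C12 cells, a mouse myoblast line. They were picked by name, as the rows of the deposited count table whose Ensembl ID carries one of these symbols, and they make up 6 of its 53700 rows. All 6 passed the filter on low counts that left 18415 genes for testing. The study comprised 9 libraries, 3 in each of 3 groups. Every group was starved for 12 h in OPTI-MEM, a reduced-serum medium. Control cells were collected at that point. The branched-chain amino acid valine was then given to the Valine cells at 0.45 mM for a further 36 h. Val+PA cells had valine at the same concentration for 24 h and, for 12 h, the saturated fatty acid palmitic acid at 75 µM. Each group was a single plate of 6 wells, 3 of which were drawn at random for sequencing. Treatment and plate therefore cannot be told apart in any of the 3 comparisons, nor can valine and the later collection in those with Control, and p-values measure the spread between wells of 1 plate.

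Actins are the monomers from which the thin filaments of muscle and the filaments of the cytoskeleton are built. Acta1 encodes skeletal muscle alpha-actin, the main actin of adult skeletal fibres, and Actc1 encodes cardiac alpha-actin, which is also made in embryonic and newly forming skeletal muscle. Acta2 and Actg2 encode the vascular and enteric smooth muscle actins, and Actb and Actg1 encode the beta and gamma actins found in nearly all cells. When myoblasts fuse into myotubes, the striated actins are known to rise and the cytoplasmic actins to fall. Several actin genes are known targets of serum response factor (SRF), which binds a short sequence called the CArG box. SRF works with cofactors of the myocardin family, of which the MRTF members are themselves held back by free actin monomers.

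The first 60 coding bases are printed for all 6 genes because the amino-terminal coding sequence is where actins of different classes differ most. They were read from the GENCODE M21 transcripts of GRCm38. Capitals mark bases that, in a pairwise alignment, differ from Actb or are inserted, with no base of Actb opposite.

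Actb: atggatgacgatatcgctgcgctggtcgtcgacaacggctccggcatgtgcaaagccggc

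Actg1: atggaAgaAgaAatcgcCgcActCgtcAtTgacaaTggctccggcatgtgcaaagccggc

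Actg2: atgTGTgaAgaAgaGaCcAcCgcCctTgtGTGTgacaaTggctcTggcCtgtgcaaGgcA

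Acta2: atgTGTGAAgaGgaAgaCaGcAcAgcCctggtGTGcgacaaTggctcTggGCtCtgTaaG

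Actc1: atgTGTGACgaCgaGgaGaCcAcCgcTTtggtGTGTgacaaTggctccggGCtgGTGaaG

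Acta1: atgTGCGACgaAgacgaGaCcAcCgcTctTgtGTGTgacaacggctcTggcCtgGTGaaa

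Of these 60 bases, 9 were marked in Actg1 and 20 to 25 in the 4 muscle actins. The marks in the muscle actins include inserted bases, so these counts are not on the same footing. Their coding sequences are 1131 bases long in Actg2 and 1134 in the others, against 1128 in Actb and Actg1. Over the aligned positions of the whole coding sequence, inserted bases left out, the lowest identity of any pair was 81.91%. The highest was 88.65%, between Actb and Actg1. No run of 150 bases, the read length given in the labels, in the transcripts of Acta1, Actc1, Acta2, Actg2 or Actb occurred in any other annotated transcript. Of the 3363 such runs in Actg1, 785 (23.3%) also occurred in the pseudogenes Gm12715, Gm16385 and Gm8399. Reads from those stretches could have been counted for either copy or left out, so the level of Actg1 is the least certain of the 6. Counts of 24 actin pseudogenes, each at least 80% identical to an actin over at least 300 bases, were 4.23% to 5.04% of all counts on actins and these pseudogenes.

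The genes lie on 6 chromosomes, all on the minus strand in GRCm38: Actc1 at chr2:114047282-114053548, Actb at chr5:142903115-142906754, Actg2 at chr6:83512905-83536265, Acta1 at chr8:123891769-123894751, Actg1 at chr11:120345690-120348542 and Acta2 at chr19:34241090-34255590. Acta1 and Actc1 each lie within an annotated gene on the opposite strand, Gm20388 and A530058N18Rik, and both of those genes had 0 counts in all 9 libraries. Promoters from RefSeq (GRCm38.p6), covering 250 bases before and 50 after the start site of that annotation, were matched for 4 of the 6 genes. They are printed 5′ to 3′ on the gene's strand to show the CArG boxes of the striated actins, the smooth muscle actin and Actg1. Capitals mark each CArG box and each CArG-like stretch in which a C or G replaces 1 of the 6 middle bases.

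The Actc1 promoter lies at chr2:114052826-114053125.
Actc1: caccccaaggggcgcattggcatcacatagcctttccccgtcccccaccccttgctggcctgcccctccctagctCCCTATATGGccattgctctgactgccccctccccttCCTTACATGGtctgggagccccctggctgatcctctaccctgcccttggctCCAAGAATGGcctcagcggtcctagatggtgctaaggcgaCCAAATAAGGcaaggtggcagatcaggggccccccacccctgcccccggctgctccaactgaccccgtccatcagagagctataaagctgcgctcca

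The Acta1 promoter lies at chr8:123894726-123895025.
Acta1: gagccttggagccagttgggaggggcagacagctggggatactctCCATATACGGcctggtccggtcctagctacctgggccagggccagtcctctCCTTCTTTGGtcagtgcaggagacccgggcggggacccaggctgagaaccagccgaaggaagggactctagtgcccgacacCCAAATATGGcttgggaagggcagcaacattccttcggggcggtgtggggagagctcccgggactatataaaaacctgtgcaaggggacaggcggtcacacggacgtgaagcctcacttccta

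The Acta2 promoter lies at chr19:34255324-34255623.
Acta2: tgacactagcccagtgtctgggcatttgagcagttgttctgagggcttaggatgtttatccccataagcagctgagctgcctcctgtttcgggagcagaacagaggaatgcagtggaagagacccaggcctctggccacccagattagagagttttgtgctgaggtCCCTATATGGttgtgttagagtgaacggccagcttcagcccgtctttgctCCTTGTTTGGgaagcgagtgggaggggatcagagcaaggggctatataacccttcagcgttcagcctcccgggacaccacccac

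The Actg1 promoter lies at chr11:120348446-120348745.
Actg1: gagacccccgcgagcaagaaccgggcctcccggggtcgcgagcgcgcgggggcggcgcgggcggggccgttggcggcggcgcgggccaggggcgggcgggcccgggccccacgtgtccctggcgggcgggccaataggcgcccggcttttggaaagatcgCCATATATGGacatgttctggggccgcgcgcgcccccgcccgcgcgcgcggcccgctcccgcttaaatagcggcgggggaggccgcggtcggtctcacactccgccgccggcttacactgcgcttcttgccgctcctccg

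Both strands were searched. Actc1, Acta1 and Actg1 each held 1 CArG box, beginning 47, 73 and 90 bases before the annotated start site, and Acta2 held none. A CArG box occurred in 1.63% of the 32851 promoters of this length. CArG-like stretches numbered 3 in Actc1, 2 in Acta1, 2 in Acta2 and 0 in Actg1, and 8.5% of all promoters held at least 1. The 2 in Acta2 began 84 and 34 bases before its start site, and imperfect CArG elements are well known in that gene. The CArG-like search was added after these promoters had been read. The E-box letters CANNTG, the core of sites for myogenic factors such as MyoD, were found 3 times in Acta2, 2 times in Acta1 and 1 time each in Actc1 and Actg1, against 72.3% of all promoters with at least 1. The letters CATTCC, the core of sites for TEAD factors, were found 1 time in Acta1 and 1 time in Acta2 (14.7% of all promoters). The letters TATAAA were found 1 time each in Actc1 and Acta1 (13.6%). They began 33 bases after the annotated start site in Actc1 and 7 bases before it in Acta1. All distances here are from the annotated start sites, and where transcription began in these cells was not tested. A stretch counted as a CArG box is never counted as CArG-like, whereas TATAAA can lie within a CArG box. A match is a description of the sequence alone.

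Depth lay between 26750226 and 35976589 counts per library. Levels are given as CPM, scaled to library size with TMM factors, and 1 count equalled 0.0271 to 0.0403 of these units. The actins took 0.768% to 0.802% of all counts in Control, 0.594% to 0.636% in Valine and 0.542% to 0.612% in Val+PA. On the first principal component of all genes (65.7% of the variance) the Control libraries stood apart from the rest. On the second (16.7%) Control 3, at -21.9, and Val+PA 2, at -46.3, stood apart from the libraries of their own groups, and results that rest on them are also given without them. Markers bore out a myoblast line: Des, Cdh15, Myf5, Myod1, Chrna1 and Pax7 were detected in every library. The smooth muscle myosin Myh11 never exceeded 8 counts. The other smooth muscle markers were higher, at up to 823 counts for Smtn, 40 for Cnn1, 34 for Myocd and 31 for Lmod1. The adipocyte hormone Adipoq was at 0 in all libraries, which allows up to 3 counts per library.

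Cytoplasmic actins dominated the actin RNA in every group, and the order of the muscle actins below them changed. Per kilobase of exon, mean levels in Control were 1900 CPM per kb for Actb, 911 for Actg1, 251 for Acta2, 12.3 for Actg2, 2.06 for Acta1 and 0.553 for Actc1. In Valine the same order began with Actb at 1395, Actg1 at 658 and Acta2 at 215 CPM per kb, but Actc1 followed at 18.7, ahead of Actg2 at 9.45 and Acta1 at 6.52. Actc1 thus moved from the last place to the fourth. In Val+PA the order was that of Valine, with 1315, 706, 189, 13.2, 9.45 and 6.20 CPM per kb. Neighbours in these orders did not overlap over the 3 libraries of any group.

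Valine cells held more RNA of both striated actins and less of 3 of the other 4 actins than Control cells. Of the 6 genes, 2 were called higher and 3 lower by the quasi-likelihood test of edgeR at an adjusted p of 0.05, against 20.8% and 21.1% of all tested genes. The number lower ran from 1 to 4 when 1 library was left out, with 1 without Valine 1 or Valine 2, while the number higher stayed at 2. The median log2 fold change was -0.30 over the 6 genes and -0.0049 over all genes. For all 6 genes the 3 Valine libraries did not overlap with the 3 Control libraries, as for 59.0% of all genes.

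Actc1 had the lowest level of the 6 genes in Control and changed most in size. Its counts were 28, 31 and 21 in the Control wells, 1062, 1061 and 1063 in the Valine wells and 626, 708 and 786 in the Val+PA wells, in the order of replicate number. In CPM these were 0.898, 0.942 and 0.846 in the Control wells, 28.9, 30.8 and 31.2 in the Valine wells and 17.0, 22.7 and 24.3 in the Val+PA wells. Every Valine and Val+PA library lay far above every Control library, and every Val+PA library lay below every Valine library. The rise from 0.895 ± 0.0481 to 30.3 ± 1.25 CPM (SD, n = 3 each) was 33.6-fold, a log2 fold change of 5.07 (SE 0.18, edgeR adjusted p = 1.6e-08). In Val+PA the gene was 23.6-fold higher than in Control (log2 4.56, SE 0.18, edgeR adjusted p = 2.31e-08). On the log2(value + 1) scale of the deposited normalized values, which understates the change of low genes, these log2 differences were 4.24 and 3.73.

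Acta1 rose less, from a higher starting level. It measured 3.78, 3.37 and 2.34 CPM in the Control wells, 9.89, 10.7 and 9.44 in the Valine wells and 7.22, 11.0 and 10.4 in the Val+PA wells. The Control libraries were the lowest 3 of the 9, and the Valine and Val+PA libraries overlapped. From Control to Valine it rose 3.14-fold (log2 1.65, SE 0.20, edgeR adjusted p = 5.71e-05). From Control to Val+PA it rose 2.98-fold (log2 1.58, SE 0.20, edgeR adjusted p = 8.51e-05).

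The order of the 2 striated actins was reversed between Control and the other groups. Per length, the ratio of Actc1 to Acta1 was 0.225, 0.265 and 0.344 in the Control wells, 2.77, 2.74 and 3.13 in the Valine wells and 2.23, 1.97 and 2.22 in the Val+PA wells. Acta1 was the more abundant of the pair in each Control library and Actc1 in each of the other 6. The mean ratio was 10.4 times higher in Valine than in Control and 0.743 times that of Valine in Val+PA. Neither pair of groups overlapped, and the exact two-sided permutation p was 0.1 in both cases, the smallest that 3 against 3 libraries allow.

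Of the smooth muscle actins, Actg2 was called lower than Control in both treated groups and Acta2 in Val+PA, by small amounts. Acta2, the most abundant muscle-type actin here, measured 580, 569 and 507 CPM in the Control wells, 457, 482 and 480 in the Valine wells and 376, 454 and 414 in the Val+PA wells. All Valine libraries were below all Control libraries, and all Val+PA libraries were below all Valine libraries. Against Control, Acta2 differed in Valine by -0.22 on the log2 scale (SE 0.10, edgeR adjusted p = 0.0924), which missed the threshold. Without Control 3 that difference was -0.28 (adjusted p = 0.0390), and without Val+PA 2, which is in neither group, it was -0.22 (adjusted p = 0.0310). In Val+PA it fell by 24.9% against Control (log2 -0.41, SE 0.10, edgeR adjusted p = 0.00614).

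Actg2 measured 21.0, 19.9 and 16.4 CPM in the Control wells, 14.2, 15.8 and 14.2 in the Valine wells and 14.4, 15.0 and 14.8 in the Val+PA wells. The lowest Control library, Control 3, was close to the highest Valine library, and no Control library overlapped with the other groups. It fell by 23.0% in Valine (log2 -0.38, SE 0.12, edgeR adjusted p = 0.0280) and fell by 22.9% in Val+PA (log2 -0.38, SE 0.12, edgeR adjusted p = 0.0294). Both calls were near the threshold. In Valine the call was lost under 11 of 23 alternatives, among them without Control 1, Control 2 or any 1 Valine library, and in Val+PA under 13 of 23.

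With all libraries in the fit, both cytoplasmic actins fell from Control to Valine by about the same proportion. That likeness rested on Control 3. Without it the log2 difference of Actg1 was -0.31, while that of Actb lay between -0.48 and -0.41 whichever library was left out. Actb measured 5330, 5110 and 4827 CPM in the Control wells, 3568, 3773 and 3868 in the Valine wells and 3315, 3655 and 3596 in the Val+PA wells. The Control libraries were the highest 3 of the 9, and the other groups overlapped. Actb fell by 26.6% in Valine (log2 -0.45, SE 0.09, edgeR adjusted p = 0.0018) and by 30.8% in Val+PA (log2 -0.53, SE 0.09, edgeR adjusted p = 0.000574). Both calls were kept under all 23 alternatives.

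Actg1 measured 2182, 2157 and 2925 CPM in the Control wells, 1722, 1738 and 1790 in the Valine wells and 1566, 2085 and 1978 in the Val+PA wells. Control 3 was the highest of all libraries, and Val+PA 2 was the highest of its group. Actg1 fell by 27.7% in Valine (log2 -0.47, SE 0.14, edgeR adjusted p = 0.0168). Without Control 3 the value was -0.31 (adjusted p = 0.0512), and without Valine 1 or Valine 2 the adjusted p was 0.0630 and 0.0562. With Control 3 and Val+PA 2 both left out it was -0.31 with a smaller SE of 0.07 (adjusted p = 0.00221). In Val+PA the difference from Control was -0.37 (SE 0.14, edgeR adjusted p = 0.0514), which narrowly missed the threshold. That call was gained under 10 of 23 alternatives, among them when Actg1 was counted together with the 3 pseudogenes that share its sequence (adjusted p = 0.0464), an alternative chosen after seeing the data. Gm12715, the most counted of them, had a log2 fold change of -0.46 in Valine against Control (SE 0.11, edgeR adjusted p = 0.00538). In the stretches they share, its reads cannot be told apart from those of Actg1.

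**Figure D1:**
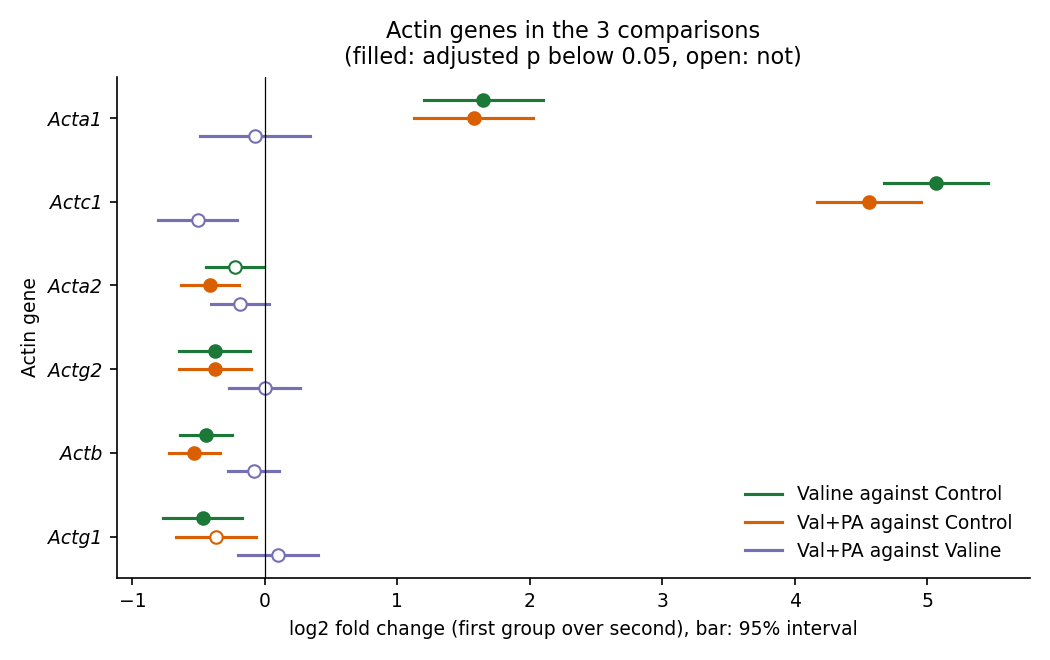
Log2 fold change of each actin gene with its 95% interval from the edgeR fit, for Valine against Control, Val+PA against Valine and Val+PA against Control. Acta1 and Actc1 lie above 0 against Control and the other 4 genes below it, and in Val+PA against Valine the interval of Actc1 alone does not reach 0.

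Val+PA cells differed from Control cells in the same directions, with 2 actin genes called higher and 3 lower, against 20.4% and 18.8% of all tested genes. The 3 lower were Acta2, Actg2 and Actb. The groups did not overlap for any of the 6 genes, as for 45.5% of all genes. The median log2 fold change was -0.37 over the 6 genes and -0.0018 over all genes. This comparison and that of Valine share their Control libraries, so their likeness is not a separate result. With Control 3 and Val+PA 2 left out, 2 were higher and 4 lower in each of these comparisons.

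Val+PA was compared with Valine, which differ by palmitic acid and by plate. The labels give 24 h of valine against 36 h and do not say whether valine stayed in the medium with palmitic acid. None of the 6 genes was called, against 0% of all genes. edgeR called no gene at all here and DESeq2 called 132 higher and 80 lower, none of them an actin, while 13.2% of all genes had an unadjusted edgeR p below 0.05. Actc1 had the largest difference, -0.51 on the log2 scale (SE 0.14, 95% interval -0.80 to -0.21, edgeR adjusted p = 0.247), with groups that did not overlap. Acta2 differed by -0.19 (95% interval -0.41 to 0.03, adjusted p = 0.417), also without overlap, as for 24.6% of all genes. The groups overlapped for the other 4 genes, whose differences were -0.07 for Acta1 (95% interval -0.49 to 0.34), 0.00065 for Actg2 (-0.27 to 0.27), -0.09 for Actb (-0.28 to 0.11) and 0.10 for Actg1 (-0.20 to 0.40). With Control 3 and Val+PA 2 left out, edgeR called 312 genes higher and 292 lower, and 2 actins were among the lower: Actc1 (log2 -0.56, adjusted p = 0.0187) and Acta2 (log2 -0.26, adjusted p = 0.0241).

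Summed over the 6 genes, the actin level was 8086 ± 211 CPM in the Control wells, 6014 ± 199 in the Valine wells and 5858 ± 498 in the Val+PA wells (SD, n = 3 each). Every Control library, the lowest at 7860 CPM, lay above every library of the other groups, the highest of which was at 6243 CPM. Against Control the difference in the summed level was -25.6% in Valine and -27.5% in Val+PA (exact two-sided permutation p = 0.1 for each). Val+PA and Valine overlapped (exact p = 0.8).

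The makeup of the actin RNA differed little in the cytoplasmic class and several-fold in the striated class. Cytoplasmic actins held 92.9% ± 0.658 of all actin counts in the Control wells, 91.2% ± 0.137 in the Valine wells and 92.1% ± 0.195 in the Val+PA wells. Smooth muscle actins held 7.07% ± 0.648, 8.11% ± 0.122 and 7.33% ± 0.215. Striated actins held 0.0503% ± 0.0104, 0.670% ± 0.0157 and 0.523% ± 0.0601 (SD, n = 3 throughout). The striated share was at most 0.687% in any library. Its libraries did not overlap between any groups, and Actc1 made up most of it in Valine, at 0.504% against 0.167% for Acta1, whereas in Control it was 0.0111% against 0.0392%.

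The share of Acta2 was higher in Valine than in Control although its level was not higher, at 7.15%, 7.23% and 6.13% in the Control libraries and 7.87%, 7.96% and 7.75% in Valine. It was 7.10%, 7.28% and 6.85% in Val+PA, where it overlapped with Control. Actg1 held 26.9%, 27.4% and 35.3% of actin counts in the Control wells, 29.7%, 28.7% and 28.9% in the Valine wells and 29.6%, 33.4% and 32.8% in the Val+PA wells. Control 3 had the highest share of Actg1 and the lowest shares of the other 5 genes among the Control libraries. The shares of Actg1 in Control 1 and Control 2 lay below those of every Valine and Val+PA library. Over 18 comparisons of single shares and 9 of class shares the smallest exact two-sided permutation p was 0.1, the smallest possible, so none could pass 0.05.

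Within the cytoplasmic pair the ratio of Actb to Actg1 per length was 2.42, 2.35 and 1.64 in the Control wells, 2.06, 2.15 and 2.14 in the Valine wells and 2.10, 1.74 and 1.80 in the Val+PA wells. The Control libraries spanned all the others, with Control 3 the lowest of the 9, and no comparison of this ratio was below an exact p of 0.2. That span rested on Control 3. Control 1 and Control 2, at 2.42 and 2.35, lay above every Valine and Val+PA library. The ratio of Acta2 to Actg2 per length was 20.6 ± 1.23 in the Control wells, 22.8 ± 1.18 in the Valine wells and 19.96 ± 1.48 in the Val+PA wells (SD, n = 3 each). Val+PA lay below Valine in every library (exact p = 0.1).

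The lists of other genes that follow are to be read against the 20.8% of all tested genes called higher and the 21.1% called lower in Valine against Control. The regulators of actin genes were examined through 9 genes for SRF and its cofactors. In Valine 2 of them were higher than in Control, 3 were lower and 4 were not called (median log2 0.03, against -0.0049 over all genes). Srf itself fell from 56.7 ± 6.36 to 31.3 ± 1.70 CPM (log2 -0.86, SE 0.17, edgeR adjusted p = 0.00199). Mrtfa, a cofactor released when actin monomers are used up, fell as well (log2 -0.56, edgeR adjusted p = 0.0114), and its relative Mrtfb differed by 0.25 (adjusted p = 0.0524). Myocd, the cofactor of heart and smooth muscle, rose from 0.312 ± 0.0953 to 0.864 ± 0.135 CPM (log2 1.48, SE 0.38, edgeR adjusted p = 0.00754), a low level in all groups.

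Of 16 cytoskeletal genes listed as SRF and MRTF targets, 4 rose, 4 fell and 8 were not called (median log2 0.01), shares near those of all genes (20.8% and 21.1%). Filip1l rose most (log2 1.25, edgeR adjusted p = 0.0046), and Ccn1, a secreted matrix protein, fell most (log2 -1.84, edgeR adjusted p = 8.2e-07). Of the 9 tested smooth muscle type contractile genes 3 rose, 2 fell and 4 were not called. Ppp1r14a, an inhibitor of myosin phosphatase, rose from 0.0833 to 1.13 CPM (edgeR adjusted p = 0.000138), and Tagln, an actin-binding protein of smooth muscle, fell from 0.651 to 0.236 CPM (edgeR adjusted p = 0.00829). Both were at low levels. The summed CPM of the 5 smooth muscle markers ran from 17.9 to 21.7 in the Control wells, 20.4 to 22.01 in the Valine wells and 18.3 to 29.5 in the Val+PA wells.

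Of 19 tested thin filament genes, the partners of actin in the sarcomere, 12 were higher, 3 lower and 4 not called in Valine against Control, beside 20.8% and 21.1% of all genes (median log2 0.94). Tnnt1, slow skeletal troponin T, rose from 0.260 ± 0.0197 to 2.24 ± 0.249 CPM (log2 3.10, SE 0.31, edgeR adjusted p = 1.12e-05). Neb, the nebulin that spans the thin filament, rose from 3.09 to 17.7 CPM (edgeR adjusted p = 1.82e-07), and Klhl41, a kelch protein of the sarcomere, from 2.94 to 20.6 CPM (edgeR adjusted p = 6.97e-08). Tnnt2, cardiac troponin T, which is also made in embryonic skeletal muscle, fell from 9.65 ± 0.785 to 4.06 ± 0.714 CPM (log2 -1.25, SE 0.16, edgeR adjusted p = 6.4e-05). The other members that fell were Tpm1 and Tpm3, tropomyosins that non-muscle cells also make. Neb, Klhl41, Tpm1 and Tpm3 were picked after their values were seen. In Val+PA against Control the counts were 11 higher and 3 lower, beside 20.4% and 18.8% of all genes. In Val+PA against Valine they were 0 and 0, where edgeR called no gene. With Control 3 and Val+PA 2 left out they were 12 and 3 against Control and 1 and 2 against Valine.

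Markers of myotubes, like the striated actins, were higher in Valine and in Val+PA than in Control. Between Valine and Val+PA their sums overlapped, as Acta1 did and Actc1 did not. Their summed level (Myog, Mymk, Mymx, Myh3 and Ckm) ran from 3.59 to 4.59 CPM in the Control wells, 33.4 to 37.0 in the Valine wells and 25.8 to 38.7 in the Val+PA wells, and all 5 were called higher in Valine. The overlap between Valine and Val+PA rested on Val+PA 2, at 38.7 CPM. Val+PA 1 and Val+PA 3, at 25.8 and 27.1 CPM, lay below every Valine library. With Control 3 and Val+PA 2 left out, 1 of the 5 was called lower in Val+PA than in Valine and 0 higher. Over all genes that fit called 292 lower and 312 higher of 18799. Myog, the factor that starts terminal differentiation, had a log2 fold change of 3.82 (edgeR adjusted p = 6.25e-07), and Myod1, which marks committed myoblasts, one of 0.42 (adjusted p = 0.112). The summed fibroblast markers also differed, at 28.0 to 36.9 CPM in the Control wells, 278 to 303 in the Valine wells and 177 to 239 in the Val+PA wells, and 2 of the 4 tested, Dcn and Lum, were called higher in Valine. Without Control 3 and Val+PA 2 all 4 tested were called higher. Endothelial markers summed to 0.524 to 1.09 CPM in the Control wells, 2.45 to 3.05 in the Valine wells and 2.36 to 3.49 in the Val+PA wells, and both tested, Kdr and Tek, were called higher in Valine. Immune markers summed to 1.81 to 2.98, 4.84 to 5.96 and 5.67 to 7.06 CPM, with Cd68 called higher and Csf1r lower in Valine. The part of these markers in the actin results was not tested, and in bulk RNA more cells of a type and more RNA per cell cannot be told apart.

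Of 18 genes for binding and turnover of the actin monomer 4 rose, 4 fell and 10 were not called (median log2 0.04), again near the shares of all genes (20.8% and 21.1%). Pfn1, the profilin that feeds monomers to growing filaments, fell from 512 ± 33.1 to 294 ± 21.7 CPM (log2 -0.80, SE 0.12, edgeR adjusted p = 0.000286). Cap2, a muscle-enriched cyclase-associated protein, rose from 0.171 ± 0.162 to 1.12 ± 0.249 CPM (log2 2.62, SE 0.49, edgeR adjusted p = 0.00107). Of 24 nucleators 2 rose, 6 fell and 16 were not called (median log2 -0.07). Cobl, cordon-bleu, rose (log2 1.12, edgeR adjusted p = 3.25e-05) and the formin Fhod1 fell (log2 -0.91, edgeR adjusted p = 0.00322).

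Of 18 genes that fold and modify actin 1 was higher, 8 were lower and 9 were not called, beside 20.8% and 21.1% of all genes (median log2 -0.23). Of the 8 subunits of the chaperonin CCT, which folds new actin, 7 fell. The largest fall among them was that of Cct3, from 545 ± 2.18 to 303 ± 6.88 CPM (log2 -0.85, SE 0.10, edgeR adjusted p = 3.03e-05), and Cct4 was not called (log2 -0.15, adjusted p = 0.216). Setd3, the methyltransferase that modifies a histidine of actin, was the member that rose (log2 0.34, edgeR adjusted p = 0.0254). Of 12 cytoplasmic crosslinkers 2 rose, 3 fell and 7 were not called (median log2 -0.10). Sptbn1, a beta spectrin, rose by 0.58 and Actn1, the non-muscle alpha-actinin of adhesions, fell by 0.92 on the log2 scale (edgeR adjusted p = 0.000459 and 9.62e-05).

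With Control 3 and Val+PA 2 left out, the higher and lower counts in Valine against Control were 3 and 3 for SRF and cofactors, 6 and 6 for SRF and MRTF targets, 4 and 2 for smooth muscle type genes and 13 and 3 for thin filament genes. They were 5 and 7 for monomer binding, 5 and 10 for nucleators, 1 and 9 for folding and 4 and 6 for crosslinkers. In that fit edgeR called 5068 genes higher and 5104 lower of 18799.

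Actb is often used as a reference in RT-PCR, so its change was set beside 11 other genes used that way, listed after the data were seen. In Valine against Control 2 of them rose (B2m and Pgk1), 1 fell (Gusb) and 8 were not called, beside 20.8% and 21.1% of all genes. Without Control 3 and Val+PA 2, 2 were higher and 4 lower. Gapdh differed by -0.06 on the log2 scale (SE 0.12, edgeR adjusted p = 0.732), against -0.45 for Actb.

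Across the 9 libraries the genes most like each actin were named by Pearson's r of log2 CPM among 11130 candidates with a mean of at least 2 CPM. The 9 points share the split of Control from the other groups, so high values are common, and r is given as a description. Those most like Actc1 were Adamts5 (r = 0.999), a matrix protease, Mturn (0.998) and Pik3ip1 (0.997), a negative regulator of PI3 kinase. Those most like Acta1 were Fat4 (0.989), a protocadherin, Rnf122 (0.988) and Ralgds (0.988). For Actc1, 739 candidates had r over 0.95 and for Acta1, 448.

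Those most like Actb were Hist1h2ag (r = 0.990), a histone, Mcm5 (0.990), a subunit of the replicative helicase, and Chaf1b (0.988), a subunit of chromatin assembly factor. The mean level of Mcm5 was 172 CPM in Control and 43.9 CPM in Valine. Those most like Actg1 were Cdkn2d (0.989), an inhibitor of cyclin-dependent kinases, Tdg (0.987), a DNA glycosylase, and Alad (0.986), a haem synthesis enzyme. For Actg2 they were Psmc4 (0.989), a proteasome subunit, Elmo2 (0.983) and Gdf11 (0.975). For Acta2 they were Itgb6 (0.982), an integrin, Tubb5 (0.981), a tubulin, and Gbf1 (0.967). Only 6 candidates had r over 0.95 with Acta2, the fewest of the 6 actins. Between the actins themselves r was 0.97 for Acta1 with Actc1, 0.92 for Acta2 with Actb and 0.91 for Actg2 with Actb, and 0.49 for Actg1 with Actg2, the lowest among the 4 genes with negative fold changes against Control.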

How the data were processed

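RNA was measured in 9 libraries of C2C12 cells, 3 per group, sorted into groups by their labels. Libraries were strand-specific and paired-end, per the labels' protocols. The submitters' processing notes list HISAT2, featureCounts, DESeq2 and the build GRCm38. Their versions, the annotation and the strand setting were not given in the sources used here. In the deposited count table each value is a raw read count, and the deposited normalized signal table holds values that, tested on 11657 genes, equal the counts times a gene factor and a library factor, within 0.0161 on the log2 scale over 11657 genes. The gene factor matched the summed exon length within 1% for 98.5% of 11619 genes. It also matched for each of the 6 actins, which were checked apart. For Actc1 that check left out the Control libraries, where its counts were low. Symbols and coordinates came from GENCODE M21, which named 52147 of 53700 IDs.

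Genes passing filterByExpr were fitted with edgeR 4.0.16 (R 4.3.3; quasi-likelihood test, TMM scaling, all 9 libraries, 6 residual degrees of freedom), two-sided, with Benjamini-Hochberg adjustment over 18415 genes at 0.05. Standard errors were taken as the size of the log2 fold change over the root of the F statistic. Levels are TMM-scaled CPM, and levels per length use the summed exon length. Shares, sums and ratios were compared by exact two-sided permutation tests over libraries. Alternatives used DESeq2 1.42.0, limma 3.58.1, other scalings and filters, left-out libraries and the deposited signal on the log2 scale with pseudocounts of 1 and 0.1. The edgeR script was tested on simulated data. Total counts ran from 26750226 to 35976589, and counting error and wells of 1 plate set the precision. No 2 libraries were duplicates.

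The actin genes and the gene lists were chosen with earlier results of these data known. Named genes are the 6 actins, the called list member with the largest rise and fall, Mrtfa, Mrtfb, Myod1, Myog, and the 3 genes most correlated with each actin, leaving out Gm and Rik names. Neb, Klhl41, Tpm1, Tpm3, Cct4, Gapdh, B2m, Pgk1, Gusb, Gm12715 and the markers Smtn, Cnn1, Lmod1, Dcn, Lum, Kdr, Tek, Cd68 and Csf1r were named outside this rule, after their values were seen. A further gene of the RT-PCR reference list is not reported here.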

Additional observations from a re-analysis of the deposited data

How the results depend on the processing

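Among repeats of the reported results under alternatives, 743 were labelled the same, 33 weaker, 17 stronger and 26 reversed in sign. For the fold change of a gene, weaker and stronger mean a call lost or gained. Shares and summed levels have no call and were labelled by sign alone. The number of actins called lower in Val+PA against Control ran from 2 to 4, with all 23 repeats labelled the same. The calls of Acta1, Actc1 and Actb against Control held under all 23 alternatives. The number of actins called lower in Valine against Control was 3. It was 1 at a threshold of 0.01 and 1 on the normalized values as log2(value + 1), and it ran from 1 to 4 when 1 replicate was left out, with 1 without Valine 1 or Valine 2; the cause was not tested. In Val+PA against Valine the number lower was 0, and 2 without Control 3 and Val+PA 2, a fit with fewer samples. Over all genes, edgeR called 0 there, and 476 higher and 287 lower without a filter.

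The difference of Actg2 between Val+PA and Valine, 0.00065 on the log2 scale, changed sign in many repeats: -0.00879 with DESeq2, -0.00876 with RLE factors, -0.00754 with upper-quartile factors, -0.0343 with library size alone, -0.00895 with at least 1 CPM in 3 libraries, -0.0033 in the 2 groups alone, -0.0149 without Control 3 and Val+PA 2, and -0.00314 and -0.00321 on normalized values with pseudocounts of 1 and 0.1. Leaving out 1 replicate moved it from -0.0279 to 0.0530, and that of Acta1 (-0.07) from -0.187 to 0.0913.

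Leaving out 1 replicate also turned differences in share, in percentage points. In Val+PA against Valine they ran from -0.0124 to 0.00713 for Acta1 and from -0.0023 to 0.0153 for Actg2. In Val+PA against Control they ran from -0.113 to 0.440 for Acta2, from -0.00358 to 0.0268 for Actg2 and from -0.116 to 0.464 for the smooth muscle class. In Valine against Control they ran from -0.0110 to 0.0194 for Actg2, from -3.22 to 0.455 for Actb and from -2.28 to 1.95 for Actg1. Each was turned by leaving out a Control library, which for Actg1 was Control 3. The summed level of Val+PA minus Valine ran from -348 to 126 CPM, above 0 without Val+PA 1. Depth limits Actc1 in Control, where it rests on 21 to 31 counts.

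Replicate numbers were not taken as pairs, because the labels name no paired source. Correlations of same-numbered libraries' deviations ran from -0.409 (Control 2 with Val+PA 2) to 0.238. Those of libraries with different numbers ran from -0.460 to 0.440. With 3 libraries per group these ranges cannot exclude a pairing. Not every library correlated best with its own number. With a replicate block the call of Actg1 in Val+PA against Control was gained (log2 -0.36, edgeR adjusted p = 0.0398), which took the number lower from 3 to 4, and the block changed no other actin call. Over all genes the block gave 3675 higher and 3694 lower in Valine against Control, in place of 3834 and 3884.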
